A study of Homo sapiens with 2 samples.

Results

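Collagen genes were taken as every row of the deposited feature list whose symbol is COL, a number, A and a number with no suffix, which gave 44 of 36601 genes. Their level was compared between 6 breast cancer cell lines grown in culture and profiled together by droplet-based 3′ single-cell RNA sequencing. The lines were stained with a multiplexing oligo each and mixed into 2 pools of 3 lines, BT-474 with MDA-MB-231 and MDA-MB-453 in the first capture, and HCC38 with Hs578T and MDA-MB-436 in the second. BT-474 and MDA-MB-453 are luminal lines with altered HER2, the other lines are triple-negative, and Hs578T was derived from a carcinosarcoma, a tumour with mesenchymal features. No treatment is named in the labels. Each line is present as 1 culture in 1 capture, so line, culture and capture cannot be told apart, and no difference between lines was tested.

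Collagens are extracellular proteins built from chains that wind into a triple helix. Fibrillar collagens form the tensile fibres of connective tissue, network collagens form the sheets of basement membranes, beaded filaments of type VI link cells to the matrix around them, and the remaining classes decorate fibrils, anchor epithelia or span the plasma membrane. In breast tumours most fibrillar collagen is deposited by fibroblasts of the stroma, and epithelial cells mainly contribute basement membrane components, while carcinoma cells that have taken on mesenchymal features can transcribe stromal collagens themselves.

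The level of a gene is its unique molecular identifier (UMI) count summed over the cells of a group and scaled to a total of 1000000 UMIs of that group (CPM). Because the kit tags the 3′ end of each transcript, levels were not corrected for transcript length. How well the transcripts of each gene are captured was not calibrated, so ratios between chains are ratios of UMIs. Intervals are exact 95% intervals and cover counting error only, not variation between cultures. The 15547 barcodes with at most 20% mitochondrial UMIs fell into 6 groups by their barcode suffix, with 1989 to 3451 cells, 70.0 to 96.6 M UMIs and a median of 20310 to 38070 UMIs per cell. No label ties an oligo to a line, so groups were named from marker genes, none of them a collagen. The group that led 11 of 11 BT-474 markers is called BT-474-like, and the other names rest on 5 of 7 markers for MDA-MB-231, 4 of 9 for MDA-MB-453, 8 of 8 for HCC38 and 9 of 10 for Hs578T. The group of suffix 6 led 5 of 5 MDA-MB-436 markers (CDKN2A, UCHL1, PRAME, IL13RA2 and VGF), but MMP1 from the MDA-MB-231 list was among its 10 leading genes, so it is called the suffix 6 group, and MDA-MB-436 is left for it by elimination only. The median cell had 5.84% to 9.87% mitochondrial UMIs, except in BT-474-like cells, where it had 14.5%. Within a capture no barcode sequence occurred in more than 1 group, and 22 were shared between the captures. Of the kept barcodes, 404 were called doublets or held transcripts of another line of their capture, and values without these barcodes are given for the sums, for the members of the second capture whose level they move most, and for the spread between cells. The immune cell markers PTPRC, CD3E and LYZ and the endothelial markers PECAM1, VWF and CDH5 stayed at or below 1.11 CPM in every group, while CD68, a lysosomal protein of macrophages, was at 64.96 CPM in suffix 6 cells and at most 32.33 CPM elsewhere. The fibroblast markers DCN, LUM, PDGFRA and FAP were all present in the Hs578T-like group, at 32.3, 126, 38.3 and 31.2 CPM, and LUM and FAP also belong to the Hs578T marker list.

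Summed over all 44 genes, collagen transcripts made up 3765 CPM (3752 to 3778) in the Hs578T-like group. The next groups were HCC38-like with 444 CPM (440 to 448), suffix 6 with 333 CPM (329 to 337) and MDA-MB-231-like with 309 CPM (305 to 313). The BT-474-like group had 107 CPM (105 to 110) and the MDA-MB-453-like group 51.6 CPM (50.05 to 53.28). The Hs578T-like sum was 8.49 times the HCC38-like sum (8.40 to 8.57), and 10.1 times after doublets and mixed barcodes were left out. The 3 groups between 309 and 444 CPM are separated by more than counting error, but with 1 culture each their order has no replicate behind it. Without doublets and mixed barcodes the suffix 6 sum of 284 CPM came to lie below the MDA-MB-231-like sum of 314 CPM. The HCC38-like and suffix 6 sums were not corrected for transcripts of Hs578T-like cells in the same capture. Genes specific to those cells reached a median of 3.48% of their level in HCC38-like and 3.12% in suffix 6 cells, as given below. Whether the HCC38-like sum would stay above the MDA-MB-231-like sum after such a correction was not tested.

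Of the 44 collagen genes, 19 reached 10 CPM in at least 1 group and are called measured, against 29.8% of all genes. The measured member closest to that limit was COL4A6 with 10.2 CPM in the HCC38-like group, and the highest below it was COL16A1 with 9.38 CPM in the Hs578T-like group. At 10 CPM or more stood 16 members in the Hs578T-like group (22.5% of all genes), 13 in the HCC38-like group (23.2%), 9 each in the MDA-MB-231-like (22.0%) and suffix 6 (22.3%) groups, and 2 each in the MDA-MB-453-like (21.8%) and BT-474-like (21.1%) groups. The Hs578T-like group was the highest of the 6 for 14 of the 19 measured members, while it was the highest for 15.5% of all 10901 measured genes. HCC38-like led 3 (COL9A3, COL4A5 and COL4A6; 20% of all measured genes), BT-474-like led COL12A1 (11.8%), MDA-MB-231-like led COL13A1 (13.2%), and MDA-MB-453-like (19.8%) and suffix 6 (19.8%) led none. In 10 of the 19 the leading group stood at least 4-fold above the next on CPM + 1, against 6.16% of measured genes. Of these 10, 9 were led by the Hs578T-like group (1.71%) and COL9A3 by the HCC38-like group (1.16%). None was led in this way by the MDA-MB-453-like (0.881%), BT-474-like (1.08%), MDA-MB-231-like (0.651%) or suffix 6 (0.679%) group.

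**Figure D1:**
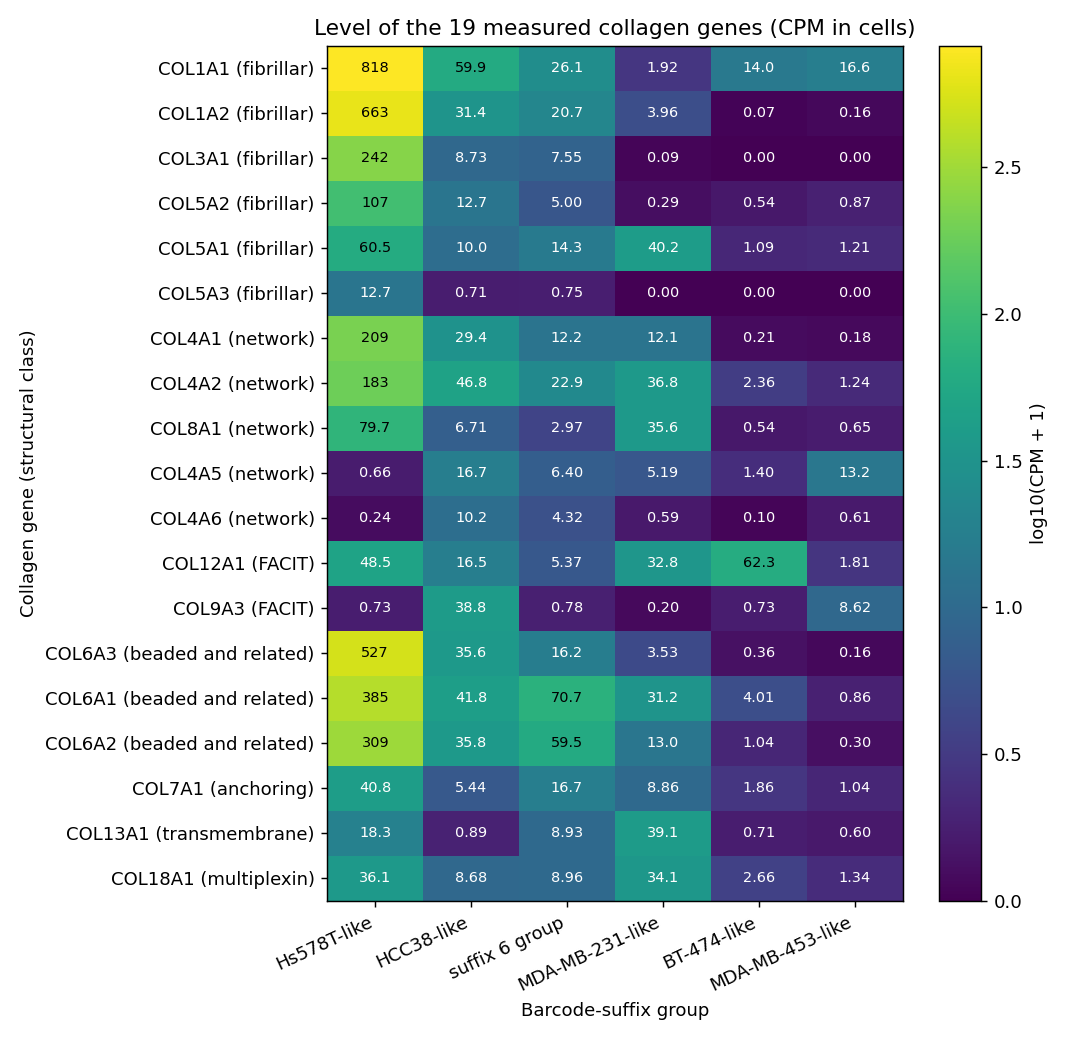
CPM of the 19 measured collagen genes (rows, by structural class) in the 6 barcode-suffix groups (columns), with the value printed in each cell and colour on a log10(CPM + 1) scale. The Hs578T-like column is the highest for 14 genes, and the rows of COL4A5, COL4A6, COL9A3, COL12A1 and COL13A1 peak elsewhere.

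Against the mean of the other 5 groups, 13 of the 19 measured members were at least 4-fold higher in the Hs578T-like group (3.85% of measured genes) and 2 at least 4-fold lower (7.90%), and the median log2 ratio was 3.00 beside -0.16 over all measured genes. In the BT-474-like group 15 of 19 were at least 4-fold lower (11.6% of measured genes) and none higher (2.48%), with a median log2 ratio of -3.65 (all genes -0.41). The MDA-MB-453-like group gave nearly the same picture, with 15 lower (13.0%), none higher (2.74%) and a median of -3.60 (all genes -0.15). The intermediate groups had 7 lower and 1 higher in MDA-MB-231-like (7.59% and 1.79% of measured genes; median -1.66), 3 lower and 2 higher in HCC38-like (4.05% and 2.68%; median -1.10), and 8 lower and none higher in suffix 6 (7.20% and 1.89%; median -1.21). Because every group is part of the mean that the others are set against, these 6 comparisons are not independent of each other. For members far higher in Hs578T-like cells, that group makes up most of the mean used for the others, so a member can count as lower without being low. COL1A2, for example, counted as lower in HCC38-like cells, though its 31.4 CPM there was the next highest after Hs578T-like cells.

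The classes differed in which group they filled. Fibrillar collagens made up 50.7% of collagen UMIs in the Hs578T-like group and beaded collagens 32.4%. In the BT-474-like group 68.9% came from fibril-associated collagens with interrupted helices (FACIT), with COL12A1 at 62.3 and COL9A2 at 9.32 of 73.9 CPM. Network collagens were the largest class in the MDA-MB-231-like group, with 29.4%, fibrillar collagens in the MDA-MB-453-like group, with 37.2%, and beaded collagens in the suffix 6 group, with 43.9%. The HCC38-like group was spread over fibrillar (30.4%), beaded (25.5%) and network (25.4%) collagens. This order changed without doublets and mixed barcodes, where its network sum was the largest, at 106 CPM. The fibrillar sum was then 97.4 CPM and the beaded sum 91.3 CPM. The fibrillar sum ranged from 16.6 CPM in the BT-474-like group to 1909 CPM in the Hs578T-like group, whereas the FACIT sum ranged only from 11.8 CPM (MDA-MB-453-like) to 73.9 CPM (BT-474-like).

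**Figure D2:**
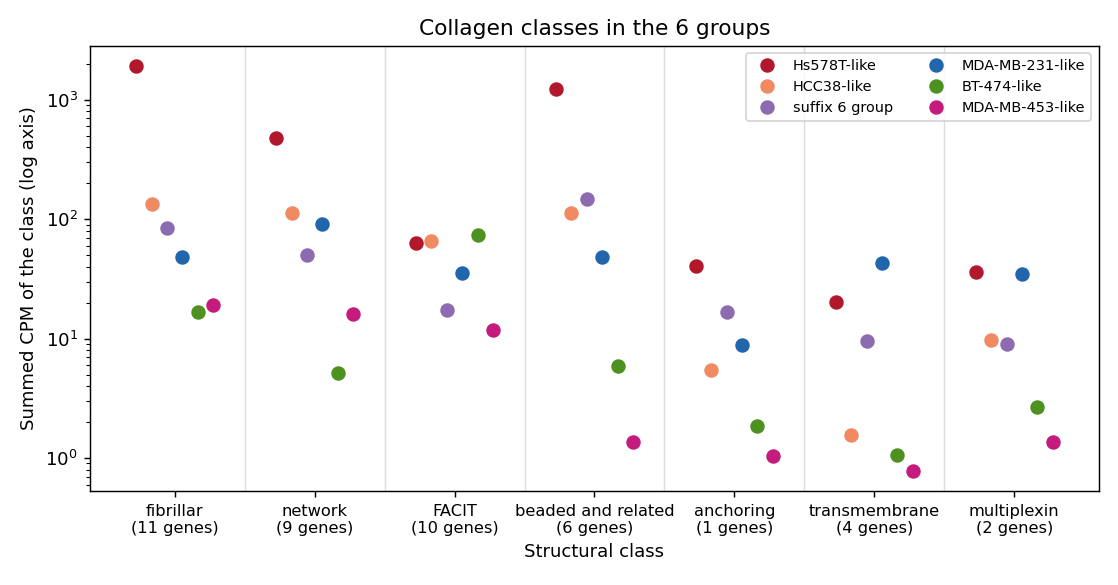
Summed CPM (log axis) of 7 structural classes, whose number of genes is printed below each name, with 1 point per barcode-suffix group. The Hs578T-like group lies highest in the fibrillar (1909 CPM), network (474 CPM), beaded (1222 CPM), anchoring (40.8 CPM) and multiplexin (36.4 CPM) classes, the BT-474-like group in the FACIT class (73.9 CPM) and the MDA-MB-231-like group in the transmembrane class (42.5 CPM).

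Among the fibrillar collagens, all 6 measured genes were highest in the Hs578T-like group, 5 of them at least 4-fold. COL1A1 (ENSG00000108821, chr17:50183289-50201632 on the minus strand, all gene spans being those of GENCODE v29 on GRCh38), which encodes the major chain of type I collagen of bone, skin and tumour stroma, stood at 818 CPM (812 to 824) in the Hs578T-like group. Its other levels were 59.9 CPM in HCC38-like, 26.1 in suffix 6, 16.6 in MDA-MB-453-like, 14.0 in BT-474-like and 1.92 in MDA-MB-231-like cells. The Hs578T-like level was 13.7 times the next (13.3 to 14.0), and the MDA-MB-231-like group was the lowest, below both luminal groups. Without doublets and mixed barcodes COL1A1 was at 44.3 CPM in HCC38-like and 13.5 CPM in suffix 6 cells.

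COL1A2 (chr7:94394561-94431232, plus strand), the partner chain of type I collagen, was at 663 CPM in the Hs578T-like group. It was at 31.4 CPM in HCC38-like, 20.7 in suffix 6, 3.96 in MDA-MB-231-like, 0.16 in MDA-MB-453-like and 0.07 CPM in BT-474-like cells. The Hs578T-like level was 21.1 times the next (20.4 to 21.9). Without doublets and mixed barcodes the HCC38-like level was 17.6 CPM and the suffix 6 level 11.8 CPM, which moved the ratio on CPM + 1 from 20.5 to 36.2. The chains of type I collagen therefore did not keep a fixed proportion: COL1A1 had 1.23 UMIs per COL1A2 UMI in the Hs578T-like group (1.22 to 1.25), but 981 against 5 UMIs in the BT-474-like group, a ratio of 196 (83.8 to 606), and 1278 against 12 in the MDA-MB-453-like group, a ratio of 106 (60.8 to 207). In the MDA-MB-231-like group the order was the opposite, with 164 COL1A1 against 338 COL1A2 UMIs, a ratio of 0.49 (0.40 to 0.59). Type I collagen is usually assembled from chains of both genes, and trimers of COL1A1 chains alone are also known. COL1A1 was present at similar levels in MDA-MB-453-like and BT-474-like cells of the same capture, the lower being 84.2% of the higher. The 20 genes most specific to the MDA-MB-453-like group reached at most 5.32% of their level in BT-474-like cells.

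COL3A1 (chr2:188974320-189012746, plus strand), the type III chain of elastic tissues and early wound matrix, was at 242 CPM in the Hs578T-like group, 27.7 times the HCC38-like level (25.9 to 29.7). It was at 8.73 CPM in HCC38-like, 7.55 in suffix 6 and 0.09 in MDA-MB-231-like cells. Without doublets and mixed barcodes the HCC38-like level was 4.28 CPM and the suffix 6 level 4.04 CPM, which moved the ratio on CPM + 1 from 24.98 to 46.67. In MDA-MB-453-like and BT-474-like cells no UMI was counted, which at 3 counts allows up to 0.0391 and 0.0428 CPM.

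The type V chains, which nucleate type I fibrils and set their diameter, were not used alike. COL5A2 (chr2:189031896-189225312, minus strand) was at 107 CPM in the Hs578T-like group and 12.7 in HCC38-like cells, a ratio of 8.41 (7.92 to 8.93), with 5.00 CPM in suffix 6 and 0.29 to 0.87 CPM in the first capture. COL5A1 (chr9:134641774-134844843, plus strand) was at 60.5 CPM in the Hs578T-like group and 40.2 CPM in the MDA-MB-231-like group, a ratio of only 1.505 (1.44 to 1.57). It stood at 14.3 CPM in suffix 6, 10.0 in HCC38-like, 1.21 in MDA-MB-453-like and 1.09 in BT-474-like cells. MDA-MB-231-like cells thus carried 3431 COL5A1 UMIs with 25 COL5A2 UMIs, a ratio of 137 (92.8 to 212), where the Hs578T-like ratio was 0.57 (0.55 to 0.59). COL5A3 (chr19:9959561-10010471, minus strand), a minor type V chain, was at 12.6 CPM in the Hs578T-like group, 0.75 in suffix 6, 0.71 in HCC38-like cells and at 0 UMIs in the whole first capture. COL3A1 and COL5A2 lie tail to tail on chromosome 2, 19149 bases apart, and both were led by the Hs578T-like group.

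The 5 unmeasured fibrillar genes include COL27A1, found in growing cartilage, at 8.64 CPM in suffix 6 cells, COL24A1 at 4.13 CPM and COL11A2 at 3.56 CPM in HCC38-like cells. COL2A1, the main chain of cartilage fibrils, reached 0.29 CPM and COL11A1, often described in tumour stroma, 0.09 CPM.

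Network collagens split into chains led by Hs578T-like cells and chains led by HCC38-like cells. Both members of each measured head-to-head gene pair had the same leading group, where Hs578T-like cells led 14 of all 19 measured collagen genes. COL8A1, in no such pair, was led by Hs578T-like cells, and the head-to-head COL4A3 and COL4A4 were not measured. COL4A1 and COL4A2, the chains of the common type IV network of all basement membranes, lie head to head on chromosome 13 with overlapping 5′ ends (chr13:110148963-110307233, minus strand, and chr13:110305812-110513209, plus strand). COL4A1 was at 209 CPM (206 to 213) in Hs578T-like, 29.4 in HCC38-like, 12.2 in suffix 6, 12.1 in MDA-MB-231-like, 0.21 in BT-474-like and 0.18 CPM in MDA-MB-453-like cells. COL4A2 was at 183 CPM in Hs578T-like, 46.8 in HCC38-like, 36.8 in MDA-MB-231-like, 22.9 in suffix 6, 2.36 in BT-474-like and 1.24 CPM in MDA-MB-453-like cells. The Hs578T-like level of COL4A1 was 7.12 times the next (6.84 to 7.41). That of COL4A2 was 3.91 times the next (3.78 to 4.04), just under the 4-fold rule, and 4.15 times after doublets and mixed barcodes were left out. COL4A1 exceeded COL4A2 in the Hs578T-like group, with 1.14 UMIs per COL4A2 UMI (1.12 to 1.17), and was the lesser chain in every other group, from 0.63 in HCC38-like through 0.53 in suffix 6 and 0.33 in MDA-MB-231-like to 0.09 in BT-474-like cells (15 against 165 UMIs).

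COL4A5 and COL4A6, minor type IV chains of some epithelial and smooth muscle basement membranes, lie head to head on the X chromosome (chrX:108439844-108697545, plus strand, and chrX:108155607-108439497, minus strand), with 346 bases between them. Both were highest in HCC38-like cells and low in Hs578T-like cells. COL4A5 was at 16.7 CPM in HCC38-like, 13.2 in MDA-MB-453-like, 6.40 in suffix 6, 5.19 in MDA-MB-231-like, 1.40 in BT-474-like and 0.66 CPM in Hs578T-like cells. COL4A6 was at 10.2 CPM in HCC38-like, 4.32 in suffix 6 and between 0.10 and 0.61 CPM elsewhere. The lead of HCC38-like cells over the next group was 1.27-fold for COL4A5 (1.17 to 1.37) and 2.36-fold for COL4A6 (2.08 to 2.67). The 2 genes ran near parallel in HCC38-like and suffix 6 cells, with 1.64 and 1.48 COL4A5 UMIs per COL4A6 UMI, whereas MDA-MB-453-like cells had 1013 COL4A5 against 47 COL4A6 UMIs, a ratio of 21.6 (16.1 to 29.5).

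The start regions of both measured gene pairs are shown because each pair has neighbouring starts and was led by the same group for both members. Whether the neighbouring starts bear on these levels was not tested. RefSeq promoter windows of GRCh38.p14, 250 bases before to 50 bases after a start site, were found for 32 of the 44 members and 12 of the 19 measured ones. The windows are COL4A1 at chr13:110307108-110307407 (minus strand), COL4A2 at chr13:110307034-110307333 (plus strand), COL4A6 at chrX:108439409-108439708 (minus strand) and COL4A5 at chrX:108439588-108439887 (plus strand). They are written 5′ to 3′ on the strand of each gene, and capitals mark matches, on either strand, to the TATA box (letters TATAAA), the CCAAT box (letters CCAAT) and the GC box (letters GGGCGG).
COL4A1: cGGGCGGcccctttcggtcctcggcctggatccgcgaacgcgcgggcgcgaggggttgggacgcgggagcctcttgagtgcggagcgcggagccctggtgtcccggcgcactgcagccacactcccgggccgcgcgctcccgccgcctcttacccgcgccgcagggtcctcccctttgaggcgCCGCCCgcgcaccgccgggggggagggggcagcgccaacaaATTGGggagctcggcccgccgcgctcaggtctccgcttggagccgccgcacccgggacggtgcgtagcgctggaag
COL4A2: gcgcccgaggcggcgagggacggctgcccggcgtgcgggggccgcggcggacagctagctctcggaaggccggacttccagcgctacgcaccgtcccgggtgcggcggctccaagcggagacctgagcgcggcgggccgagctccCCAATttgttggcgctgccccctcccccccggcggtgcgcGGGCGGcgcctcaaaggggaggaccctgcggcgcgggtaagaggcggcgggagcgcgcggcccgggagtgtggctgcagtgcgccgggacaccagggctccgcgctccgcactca
COL4A6: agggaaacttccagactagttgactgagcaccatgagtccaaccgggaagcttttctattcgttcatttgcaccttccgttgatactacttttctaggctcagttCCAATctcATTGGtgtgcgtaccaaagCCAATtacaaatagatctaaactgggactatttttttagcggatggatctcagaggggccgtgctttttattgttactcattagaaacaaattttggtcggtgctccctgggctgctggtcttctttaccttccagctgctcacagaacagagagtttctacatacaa
COL4A5: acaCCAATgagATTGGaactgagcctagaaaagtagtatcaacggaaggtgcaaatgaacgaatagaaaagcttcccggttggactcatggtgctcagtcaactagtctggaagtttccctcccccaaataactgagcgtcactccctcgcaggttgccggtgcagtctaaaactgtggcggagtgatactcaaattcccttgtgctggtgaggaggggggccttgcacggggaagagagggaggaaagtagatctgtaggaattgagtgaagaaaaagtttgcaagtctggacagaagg

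The RefSeq start sites of COL4A1 and COL4A2 are 127 bases apart, so 226 bases of their windows are the same DNA read from opposite strands. Those of COL4A6 and COL4A5 are 380 bases apart and their windows share 121 bases. The COL4A1 and COL4A2 windows hold 76.7% and 77.7% G and C, a single CCAAT each within the shared stretch, and 2 and 1 GGGCGG. The COL4A6 and COL4A5 windows hold 43.7% and 49.3% G and C, 3 and 2 CCAAT and no GGGCGG. None of the 4 windows holds TATAAA. Of 35116 RefSeq promoter windows, 34.6% hold CCAAT, 45% GGGCGG and 11.5% TATAAA, on either strand. These are matches of letters, and nothing was measured here about factors that bind them.

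COL8A1 (chr3:99638475-99799226, plus strand), a short network-forming chain found in vessel walls, was at 79.7 CPM in the Hs578T-like group. It was at 35.6 CPM in MDA-MB-231-like, 6.71 in HCC38-like, 2.97 in suffix 6 and 0.54 to 0.65 CPM in MDA-MB-453-like and BT-474-like cells. The ratio to the next group was 2.24 (2.14 to 2.33). COL4A3 and COL4A4, the chains of the glomerular basement membrane, stayed at or below 0.24 and 1.17 CPM, COL8A2 reached 1.82 CPM, and COL10A1, the marker of hypertrophic cartilage, 0.05 CPM.

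Type VI collagen, the beaded filament around cells, had all 3 of its main chains measured and led at least 4-fold by the Hs578T-like group. COL6A3 (chr2:237324003-237414375, minus strand) was at 527 CPM in Hs578T-like, 35.6 in HCC38-like, 16.2 in suffix 6, 3.53 in MDA-MB-231-like, 0.36 in BT-474-like and 0.16 CPM in MDA-MB-453-like cells, and its ratio to the next group was 14.8 (14.3 to 15.3). Without doublets and mixed barcodes COL6A3 was at 26.1 CPM in HCC38-like and 10.5 CPM in suffix 6 cells. COL6A1 (chr21:45981737-46005050, plus strand) was at 385 CPM in Hs578T-like, 70.7 in suffix 6, 41.8 in HCC38-like, 31.2 in MDA-MB-231-like, 4.01 in BT-474-like and 0.86 CPM in MDA-MB-453-like cells. COL6A2 (chr21:46098097-46132849, plus strand), its tandem neighbour, was at 309 CPM in Hs578T-like, 59.5 in suffix 6, 35.8 in HCC38-like, 13.0 in MDA-MB-231-like, 1.04 in BT-474-like and 0.30 CPM in MDA-MB-453-like cells. The ratio to the next group was 5.44 for COL6A1 (5.29 to 5.60) and 5.19 for COL6A2 (5.04 to 5.36).

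COL6A1 and COL6A2 kept a steady proportion in the second capture, with 1.17 to 1.25 COL6A1 UMIs per COL6A2 UMI, and 2.40 in MDA-MB-231-like cells (2.23 to 2.57). COL6A3, which joins these chains in the common type VI trimer, did not follow them. It had 1.37 UMIs per COL6A1 UMI in the Hs578T-like group (1.35 to 1.39), 0.85 in HCC38-like, 0.23 in suffix 6 (0.22 to 0.24) and 0.11 in MDA-MB-231-like cells (0.10 to 0.13). Without doublets and mixed barcodes the ratio was 0.75 in HCC38-like and 0.16 in suffix 6 cells. COL6A3 in suffix 6 cells cannot be told apart from transcripts of Hs578T-like cells, as given below, so their own proportion is not known. The suffix 6 group held more COL6A1 and COL6A2 than the HCC38-like group and less COL6A3. COL6A5, COL6A6 and COL28A1 reached at most 0.03, 1.19 and 0.40 CPM.

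FACIT collagens sit on the surface of fibrils, and neither of their 2 measured members was led by Hs578T-like cells. COL12A1 (chr6:75084326-75206051, minus strand), the type XII chain of tendon, ligament and strained stroma, was at 62.3 CPM (60.5 to 64.2) in BT-474-like, 48.5 in Hs578T-like, 32.8 in MDA-MB-231-like, 16.5 in HCC38-like, 5.37 in suffix 6 and 1.81 CPM in MDA-MB-453-like cells. The BT-474-like level was 1.28 times the Hs578T-like level (1.23 to 1.34), a difference between 1 culture each. On CPM + 1 the log2 ratio was 0.35. It fell to 0.19 over barcodes with at most 10% mitochondrial UMIs, of which 218 were BT-474-like. COL12A1 supplied most collagen transcripts of BT-474-like cells, in which the next members were COL1A1 with 14.0 and COL9A2 with 9.32 CPM. COL9A3 (chr20:62816244-62841159, plus strand), a chain of the type IX collagen of cartilage, was at 38.8 CPM (37.6 to 40.1) in HCC38-like and 8.62 CPM in MDA-MB-453-like cells, a ratio of 4.502 (4.14 to 4.90), and between 0.20 and 0.78 CPM elsewhere. On CPM + 1 its ratio was 4.14, the smallest of the 10 members past the 4-fold rule.

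Type IX collagen is assembled from COL9A1, COL9A2 and COL9A3, and the proportion of COL9A3 to COL9A2 differed between groups. HCC38-like cells had 3750 COL9A3 and 240 COL9A2 UMIs, MDA-MB-453-like cells 662 and 43, MDA-MB-231-like cells 17 and 177, and BT-474-like cells 51 and 653. COL9A1 was at or below 0.013 CPM in every group, the lowest of the 44 members. COL16A1, a minor chain of skin and cartilage, was at 9.38 CPM in Hs578T-like cells. The other unmeasured FACIT genes reached 2.33 CPM (COL14A1), 1.77 (COL19A1), 1.36 (COL22A1), 0.38 (COL21A1) and 0.20 (COL20A1).

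COL7A1 (chr3:48564073-48595267, minus strand), the chain of the anchoring fibrils that hold epidermis to dermis, was at 40.8 CPM in Hs578T-like, 16.7 in suffix 6, 8.86 in MDA-MB-231-like, 5.44 in HCC38-like, 1.86 in BT-474-like and 1.04 CPM in MDA-MB-453-like cells. Its ratio to the next group was 2.44 (2.29 to 2.60). COL13A1 (chr10:69801867-69964275, plus strand), a transmembrane collagen of cell adhesion sites, was highest in MDA-MB-231-like cells with 39.1 CPM (37.8 to 40.5). It was at 18.3 CPM in Hs578T-like, 8.93 in suffix 6 and 0.60 to 0.89 CPM in the remaining groups, and the ratio to the next group was 2.14 (2.01 to 2.27). The transmembrane COL17A1 of hemidesmosomes reached 3.42 CPM, in MDA-MB-231-like cells, and COL23A1 and COL25A1 reached 0.22 and 0.45 CPM. COL18A1 (chr21:45405137-45513720, plus strand), the basement membrane multiplexin from which endostatin is cut, was at 36.1 CPM in Hs578T-like and 34.1 CPM in MDA-MB-231-like cells, a ratio of 1.06 (1.008 to 1.117), and at 8.96 in suffix 6, 8.68 in HCC38-like, 2.66 in BT-474-like and 1.34 CPM in MDA-MB-453-like cells. COL15A1, the other multiplexin, reached 0.99 CPM, and COL26A1, which belongs to no class above, 0.33 CPM. In all, 25 members were not measured, 13 of them under 1 CPM in every group and 12 between 1 and 10 CPM.

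Droplets of a capture share free RNA, and a line with very high collagen can lend transcripts to its neighbours. The 20 genes most specific to the Hs578T-like group, collagens left out, reached a median of 3.48% of their Hs578T-like level in HCC38-like cells (2.40% to 5.86%) and 3.12% in suffix 6 cells (2.12% to 5.75%). Of the 16 measured members at 10 CPM or more in Hs578T-like cells, 12 stood above the highest of these reference genes in HCC38-like cells. The same 12 of 16 did so without doublets and mixed barcodes. The reference genes of each group were picked for a low share in the rest of its capture, which sets a low bar. Mixed barcodes were called on the same genes, so leaving them out lowers the reference values by construction. Whether members just above that bar, such as COL6A3 (6.76%) and COL1A1 (7.33%), were expressed in HCC38-like cells was not tested. COL12A1 was at 34.1% of its Hs578T-like level there, COL4A2 at 25.6%, COL5A2 at 11.9% and COL1A1 at 7.33%. COL3A1 (3.61%), COL1A2 (4.73%), COL13A1 (4.86%) and COL5A3 (5.65%) were within the range of the reference genes. In suffix 6 cells 10 of 16 stood above the highest reference gene, and 9 of 16 without doublets and mixed barcodes. COL4A1 passed narrowly, at 5.815% beside 5.746%, and at 4.383% beside 4.346% without these barcodes. COL13A1 was at 48.8% of the Hs578T-like level there, COL7A1 at 41.0%, COL5A1 at 23.7%, COL6A2 at 19.3% and COL6A1 at 18.4%. COL1A1 (3.20%), COL1A2 (3.12%), COL3A1 (3.12%) and COL6A3 (3.08%) lay near the median of the reference genes, and COL8A1 (3.73%) and COL5A2 (4.68%) within their range. COL5A3 (5.89%) was within the range only without doublets and mixed barcodes, at 3.87% beside a highest reference value of 4.35%. For COL3A1, COL1A2, COL13A1 and COL5A3 in HCC38-like cells, expression cannot be told apart from transcripts of the Hs578T-like cells in the same capture. The same holds in suffix 6 cells for COL1A1, COL1A2, COL3A1, COL6A3, COL5A2, COL8A1 and COL5A3, and for COL4A1 at the edge of the range.

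**Figure D3:**
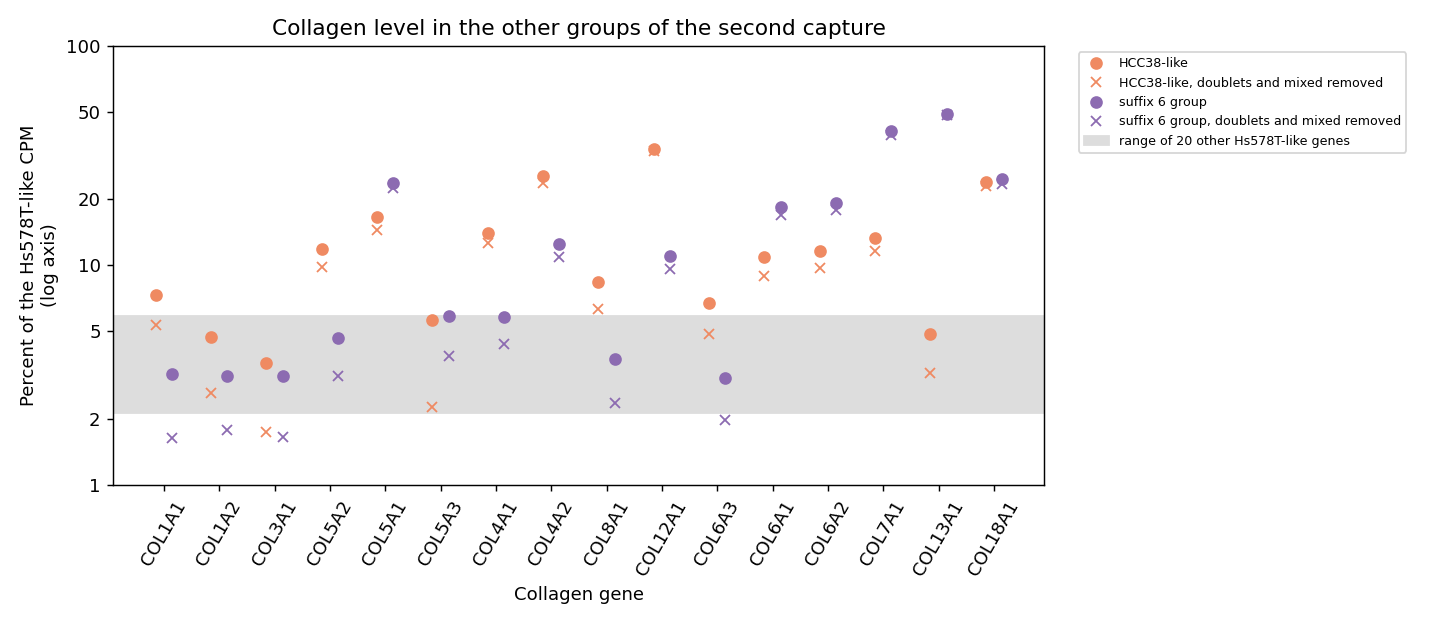
Level of 16 collagen genes in the HCC38-like and suffix 6 groups as a percent of the Hs578T-like CPM (log axis), with all kept barcodes (circles) and without doublets and mixed barcodes (crosses). The grey band runs from 2.12% to 5.86%, the range of 20 other Hs578T-like genes over both groups with all barcodes kept, for which the highest values without doublets and mixed barcodes were 3.79% (HCC38-like) and 4.35% (suffix 6).

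In the first capture the reference values were lower. The 20 genes most specific to MDA-MB-231-like cells reached at most 2.05% of their level in MDA-MB-453-like and BT-474-like cells. COL8A1, COL13A1 and COL4A1 in both of these groups were below that value, at 1.502% to 1.828% of their MDA-MB-231-like level. Without doublets and mixed barcodes COL13A1 (1.64%) and COL4A1 (1.399%) in BT-474-like cells were above the highest reference value of 1.35%. COL6A1 at 12.9% and COL18A1 at 7.80% in BT-474-like cells were above it. COL9A3 in Hs578T-like (1.89%) and suffix 6 cells (2.02%) was within the range of genes specific to HCC38-like cells, whose highest values were 1.97% and 2.23%, while COL4A5 (38.4%) and COL4A6 (42.5%) in suffix 6 cells were far above it.

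Genes that make, secrete, cross-link and bind collagen were followed as a list of 58. Of these, 47 were measured, 36 of them were highest in Hs578T-like cells (15.5% of all measured genes), and 13 stood at least 4-fold above the next group (6.16% of all measured genes), 12 in Hs578T-like cells (1.71%) and MMP1 in suffix 6 cells (0.679%). LUM, ITGA11 and MMP1 of this list are also line markers. Of 15 measured chaperone and hydroxylase genes, which act inside the cell, 11 were highest in Hs578T-like cells and none at least 4-fold. SERPINH1, the collagen chaperone HSP47, was at 327 CPM in Hs578T-like cells and 104 CPM in HCC38-like cells, with 31.5 CPM in BT-474-like cells as the lowest. P4HB, a subunit of prolyl hydroxylase, ranged only from 147 CPM (suffix 6) to 352 CPM (Hs578T-like). PLOD3, a lysyl hydroxylase, was highest in suffix 6 cells with 115 CPM, and PPIB, a prolyl isomerase of the endoplasmic reticulum, in MDA-MB-453-like cells with 751 CPM. None of 5 measured secretion genes was led 4-fold.

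Outside the cell, propeptides are removed and fibrils are cross-linked. ADAMTS2, the protease that removes the amino-terminal propeptide, was at 24.6 CPM in Hs578T-like and 2.69 CPM in suffix 6 cells, whereas PCOLCE, an enhancer of propeptide removal at the other end, was level at 86.4 and 86.3 CPM. Of 5 cross-linking oxidases, 3 were led at least 4-fold by Hs578T-like cells, namely LOX with 127 CPM against 26.1, LOXL1 with 75.9 against 9.41 and LOXL3 with 38.4 against 3.86. LOXL4 was highest in MDA-MB-231-like cells, at 19.5 CPM. Of 8 measured matrix partners, 7 were led at least 4-fold by Hs578T-like cells (POSTN 1339 CPM, FN1 1266, SPARC 686, FBN1 167, LUM 126, BGN 108 and DCN 32.3), and TNC was highest in MDA-MB-453-like cells with 41.0 CPM. Among receptors, ITGA11, the fibrillar collagen integrin and itself an Hs578T marker, was at 111 CPM in Hs578T-like and 4.10 CPM in HCC38-like cells. The discoidin receptors went in opposite directions, DDR1 being highest in HCC38-like cells (35.0 CPM, with 7.21 in Hs578T-like) and DDR2 in Hs578T-like cells (131 CPM, with 28.7 in HCC38-like). The interstitial collagenase MMP1 was at 38.2 CPM in suffix 6 cells and at or below 0.82 CPM in the other 5 groups.

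Spread between cells was described after each cell was thinned to 10000 UMIs, so that 16 to 101 shallower cells per group were dropped. The ratio of the variance to the mean of a gene is near 1 where UMIs fall on cells evenly and rises where some cells hold more. Of 15 combinations of member and group at 50 CPM or more, 6 had a ratio of 2 or more, 5 of them in Hs578T-like cells, where 5 of 11 members passed beside 8.12% of all genes at 50 CPM or more. This ratio grows with the mean, so that abundant members pass it more easily. COL1A1 and COL1A2 had ratios of 4.09 and 4.10 in Hs578T-like cells, COL3A1 2.82, COL6A3 2.46 and COL6A1 2.08. COL4A1 (1.97), COL6A2 (1.79), COL8A1 (1.54), COL5A2 (1.45), COL4A2 (1.45) and COL5A1 (1.14) were below 2, and the median over genes was 1.15.

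Nearly every Hs578T-like cell carried type I collagen transcripts. At 10000 UMIs, 97.9% of cells had a COL1A1 UMI (97.1% to 98.5%), with a median of 7 UMIs and a highest value of 54, beside 13.6% in suffix 6 cells at the same depth, where the level was that of the reference genes. The share was 97.9% for COL1A2 too, 96.4% for COL6A3, 93.8% for COL6A1 and 92.4% for COL6A2. COL3A1 and COL4A1 had a UMI in 79.4% and 78.8% of cells where an even spread of the same UMIs would give 92.5% and 89.2%. Their means were lower, at 2.59 and 2.22 UMIs per cell beside 8.22 for COL1A1 and 6.84 for COL1A2. The gap to the even share depends on the mean, so it does not rank these members by evenness. A single cell held 119 COL1A2 and 54 COL1A1 UMIs, and the next highest COL1A2 count was 38. Over all 44 genes, Hs578T-like cells had a median of 36 collagen UMIs per 10000 (10th to 90th percentile 20 to 60). The medians were 3 in HCC38-like and MDA-MB-231-like cells, 2 in suffix 6 cells, 1 in BT-474-like cells and 0 in MDA-MB-453-like cells.

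**Figure D4:**
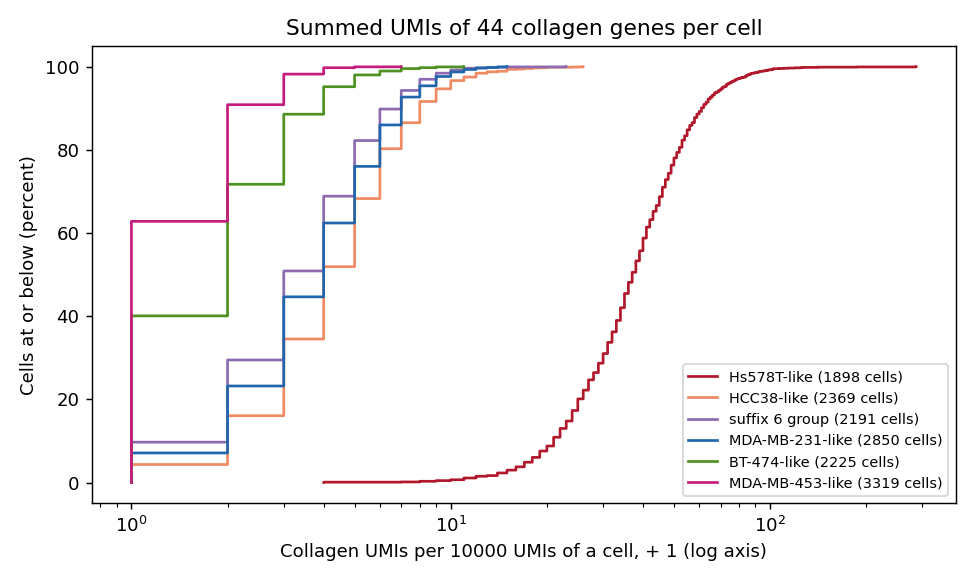
Cumulative share of cells (percent) by summed collagen UMIs per 10000 UMIs of a cell, plus 1, on a log axis, for each barcode-suffix group without doublets and mixed barcodes. The Hs578T-like curve lies apart to the right, with a median of 36 UMIs, and overlaps the upper end of the other curves only at its low end.

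In the other groups the leading members were thinly spread. COL12A1 in BT-474-like cells had a UMI in 38.0% of cells (36.0% to 40.0%) where an even spread would give 47.2%, beside 1.38% in MDA-MB-453-like cells of the same capture. It had a variance-to-mean ratio of 1.77 (0 of 1 member at 2 or more, beside 6.73% of genes) and a highest count of 9. COL1A1 in the same cells had a UMI in 12.9% of cells against an even share of 13.2%, and COL9A2 in 8.48% against 8.58%. In MDA-MB-453-like cells the shares were also near the even ones for COL1A1 (14.5% against 14.9%), COL4A5 (12.02% against 12.5%) and COL9A3 (8.57% against 8.62%). At such low means, 0.09 to 0.16 UMIs per cell, the share lies near the even share whether or not cells differ, so evenness cannot be read from it. In MDA-MB-231-like cells the shares were 32.1% for COL5A1, 30.4% for COL13A1 and 28.7% for COL4A2, against even shares of 34.9%, 33.8% and 29.6%. In suffix 6 cells COL6A1 and COL6A2 had a UMI in 44.8% and 39.4% of cells and ratios of 1.45 and 1.33 (0 of 2 members at 2 or more, beside 8.25% of genes).

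Doublets and mixed barcodes bore on the spread in the second capture. COL1A1 in HCC38-like cells had a ratio of 2.57 (1 of 1 member at 2 or more, beside 11.4% of genes) and a UMI in 31.2% of cells, against 42.2% for an even spread. Without these barcodes the ratio was 1.90 and its level fell below 50 CPM, to 44.3. In suffix 6 cells the ratio of COL1A1 was 4.05 with them and 1.07 without, that of COL1A2 2.71 and 1.04. COL4A2 and COL6A1 in HCC38-like cells had ratios of 1.16 and 1.57 with them and 1.12 and 1.24 without. COL9A3 in HCC38-like cells, which was below 1 CPM in the other groups of the capture, had a ratio of 1.68 with and without them, with a UMI in 30.1% of cells against an even share of 36.6%.

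Within the Hs578T-like group, 14 members at 20 CPM or more were compared pair by pair over 1898 cells of 1 library, as correlations of ln(1 + UMIs per 10000). Over the 91 pairs the median Pearson r was 0.10, from -0.03 to 0.46. The chains of type I collagen gave the highest value, COL1A1 with COL1A2 at 0.46 (0.46 as well without the cell of 119 COL1A2 UMIs), followed by COL3A1 with COL1A2 (0.38) and with COL1A1 (0.37), COL6A1 with COL6A2 (0.30) and COL4A1 with COL3A1 (0.30) and COL4A2 (0.29). COL12A1 and COL8A1 had values near 0 with most others, at means of only 0.47 and 0.80 UMIs per cell, beside 8.27 for COL1A1 and 6.90 for COL1A2. Counting noise lowers r where UMIs are few, so pairs and sums of unlike level cannot be ranked by r alone. Summed by type, type I went with type VI at r = 0.42 and with type IV at 0.29, and type IV with type VI at 0.18. The total of collagen UMIs went with the mitochondrial share of a cell at r = 0.24, with its depth before thinning at -0.07 and with the sum of chaperone and hydroxylase genes at 0.29. Because each cell is scaled to the same total, high values of some genes lower the others, and the part of the mitochondrial share in these correlations was not tested.

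**Figure D5:**
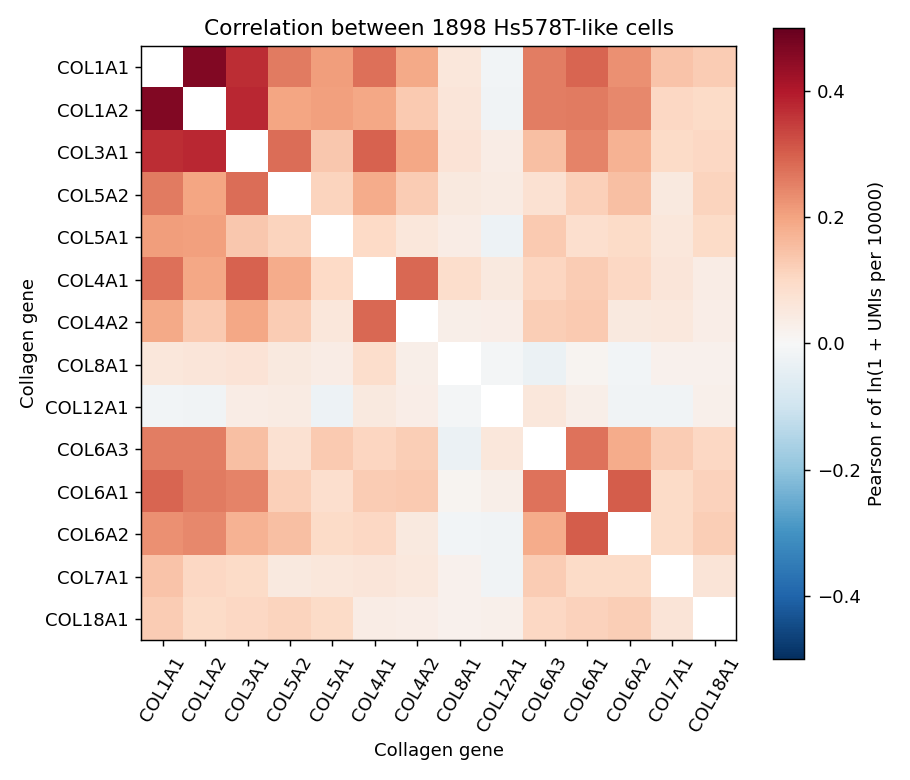
Pearson r of ln(1 + UMIs per 10000) between 14 collagen genes over 1898 Hs578T-like cells, from blue (negative) to red (positive), with the diagonal left blank. The darkest cells join COL1A1, COL1A2 and COL3A1 (0.37 to 0.46), and the rows of COL8A1 and COL12A1 stay near 0.

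Barcodes just inside and just outside the limit of 20% mitochondrial UMIs were compared as a description. In BT-474-like cells, where most barcodes near the limit lie, the collagen sum was 113 CPM (109 to 117) over 998 barcodes with 15% to 20% and 110 CPM (103 to 117) over 291 barcodes with 20% to 25%. In Hs578T-like cells it was 4099 CPM (3896 to 4309) over 17 barcodes and 7960 CPM (7558 to 8378) over 15, and in HCC38-like cells 514 CPM (453 to 580) over 22 and 1680 CPM (1446 to 1941) over 6. In suffix 6 cells it was 576 CPM (532 to 622) over 50 and 703 CPM (642 to 768) over 38. In MDA-MB-231-like cells it was 329 CPM (276 to 390) over 18 and 411 CPM (319 to 522) over 11, and in MDA-MB-453-like cells 61.1 CPM (54.5 to 68.2) over 217 and 67.8 CPM (51.04 to 88.19) over 37. The sum was thus higher outside the limit, beyond counting error, in the 3 groups of the second capture, over few barcodes, and the intervals overlapped in the first capture. These intervals do not cover the spread between so few barcodes. Doublets were not called outside the limit and mixed barcodes were not left out here, so transcripts of other lines in these sums were not separated.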

How the data were processed

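The values are UMI counts per gene and cell barcode in 1 matrix deposited by the authors, made with Cell Ranger 6.1.2, as the file headers state. The genome was GRCh38 (hg38), per the submitters' processing notes. How cells were called and oligos assigned is not given in the sources used here. The matrix holds 36601 genes and 12 oligos by 17605 barcodes, and within each suffix 1 oligo was highest in every barcode, so barcodes had been assigned before deposit. Other columns of the deposited tables hold names and other text, with no score of the authors.

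Members, structural classes, handling genes and line markers were chosen with earlier results of these data known. Barcodes with at most 20% mitochondrial UMIs were kept, and counts were summed per suffix group and scaled to CPM. A group took the name of a line, as X-like, if it was the highest for 3 or more of its markers and no marker of another line was among its 10 leading genes. A gene was measured at 10 CPM or more in at least 1 group, and the 4-fold rule used a pseudocount of 1 CPM. All measured members are named, the others by count with the highest named, and spread is named for members at 50 CPM or more and for the 3 highest of each group. Intervals are exact Poisson (CPM), Clopper-Pearson (shares) and conditional binomial (ratios), all at 95%. UMIs of cells of 1 culture are not replicates.

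Doublets were called per capture with Scrublet in scanpy 1.11.5 (expected rate 0.06), and a mixed barcode held at least 25% of another line's median for the 20 genes most specific to that line at 50 CPM or more. These 258 and 356 barcodes stay in the main values and are left out in an alternative. For spread, cells were thinned to 10000 UMIs, and correlations used the cells without doublets and mixed barcodes and members at 20 CPM or more. TMM factors came from edgeR 4.0.16 (R 4.3.3), and no count test was run. Python 3.11.15 was used with pandas 2.3.3, numpy 2.4.6, matplotlib 3.10.9 and scipy 1.17.1. The scripts were tested on simulated data with known changes. Promoter windows and motif counts are from RefSeq, gene spans from GENCODE v29. No RefSeq window was matched for COL1A1, COL1A2, COL3A1, COL5A2, COL6A1, COL8A1 and COL9A3. A listed marker of another cell type is not reported here.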

Additional observations from a re-analysis of the deposited data

How the results depend on the processing

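The leading group of each of the 19 measured members was the same under all 9 alternatives of barcode filter, level and scaling that were run. The Hs578T-like to HCC38-like ratio of the collagen sum, 8.49, was 8.43 to 8.56 under other mitochondrial and depth limits, 10.1 without doublets and mixed barcodes, 9.06 as a mean over cells and 10.3 with TMM factors, and 9.98 without doublets, mixed barcodes and barcodes over 10% mitochondrial UMIs, an alternative chosen after seeing the data. The TMM factors moved the median of all genes in Hs578T-like cells by 0.08 on the log2 scale. The count of measured members was 16 at a limit of 20 CPM and 22 at 5 CPM. The count past the 4-fold rule was 8 with a pseudocount of 5 CPM, which lost COL5A3 and COL9A3, and 15 at 2-fold. It was 11 without doublets and mixed barcodes or as a mean over cells, both gaining COL4A2, and 10 with TMM factors, which gained COL4A2 and lost COL9A3. The count of members and groups with a variance-to-mean ratio of 2 or more, 6 of 15, was 2 when cells were thinned to 5000 UMIs, a setting that lowers the ratio by construction, 4 without thinning and 5 of 14 without doublets and mixed barcodes. The limit of 10% mitochondrial UMIs leaves 218 BT-474-like cells. At these depths 3 counts are 0.0311 to 0.0428 CPM, and 1 to 12 members per group had no UMI. No paired analysis was possible because each line was profiled as 1 culture, no replicate numbers are shared between lines and no result comes from a test.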

Other observations

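The genes that went most closely with type I collagen between Hs578T-like cells were listed after their values were seen. Among 3236 genes at 50 CPM or more and over 1898 cells of 1 library, the sum of COL1A1 and COL1A2 went most closely with COL3A1 (Pearson r of ln(1 + UMIs per 10000) 0.44), SPARC (0.36), FN1 (0.35), COL6A1 (0.33), COL6A3 (0.30), CALD1 (0.30), POSTN (0.29), COL4A1 (0.28) and LUM (0.28). SPARC is a collagen-binding matricellular protein, FN1 is fibronectin, POSTN is periostin, CALD1 is an actin-binding protein and LUM is a fibril-binding proteoglycan. The lowest values were those of the ribosomal protein genes RPL26 (-0.33), RPL18 (-0.28) and RPL14 (-0.28) and of the metallothionein MT2A (-0.28). For type IV collagen the highest were FN1 (0.36), POSTN (0.32), the contractile genes TAGLN (0.31) and ACTA2 (0.30), and COL3A1 (0.30). For type VI collagen FN1 (0.36) was followed, beside COL1A1 and COL1A2, by MYH9 (0.27) and MALAT1 (0.26), and the mitochondrial MT-CO1 was at 0.23. The mitochondrial share of the cells was at 0.24 with total collagen, and its part in these lists was not tested. Counting noise lowers r for genes with few UMIs, so abundant genes reach these lists more easily.

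Some members had a large share of their UMIs in few cells, a point noticed after the values were seen. In HCC38-like cells without doublets and mixed barcodes, 16 cells with at least 3 COL5A2 UMIs per 10000 held 24.7% of that gene's UMIs. These cells had a mean of 3.19 UMIs of the 20 Hs578T-specific genes, against 1.08 in the other cells. The same held for COL1A1, with 73 such cells holding 29.1% of its UMIs and 2.07 against 1.06 Hs578T-specific UMIs, for COL6A3 (32 cells, 17.3%, 2.91 against 1.07), for COL4A2 (34 cells, 10.7%, 2.44 against 1.07) and for COL1A2 (12 cells, 10.3%, 4.58 against 1.08). Over all cells r with the Hs578T-specific sum was low for these members, from 0.075 (COL4A2) to 0.177 (COL5A2). The contrast was smaller for COL4A1 (1.71), COL6A2 (1.47), COL6A1 (1.44) and COL12A1 (1.38), each against 1.09. It was absent for COL5A1 (1.00 against 1.09 in 2 cells), and COL3A1 had no such cell. For COL9A3, 81 HCC38-like cells with at least 3 UMIs held 27.4% of its UMIs and had a mean of 0.96 Hs578T-specific UMIs, against 1.10. In MDA-MB-231-like cells COL1A2 had a variance-to-mean ratio of 2.08 at only 3.96 CPM, with a UMI in 3.54% of cells (2.90% to 4.28%), against an even share of 4.599%, and a highest count of 10 in a cell, while COL1A1 in the same cells had a ratio of 1.02.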
